A study of Mus musculus with 7 samples.

Results

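Nodal and Lefty signalling was followed through 9 genes of the 24739 listed in the deposited expression table, in whole fetal testes from wild-type (WT) mice and mice with a disrupted Glis3 gene. The 9 genes were taken by name and not by their values: Nodal, the inhibitors Lefty1 and Lefty2, the co-receptor Tdgf1, the receptors Acvr1b, Acvr1c and Acvr2b, and the effectors Smad2 and Smad3. Testes were collected at embryonic day 14.5 (E14.5) on a C57BL/6 background, and each library held the RNA of 1 pair of testes from 1 embryo, with 3 libraries labelled WT and 4 labelled Mutant. Mutant embryos were homozygous for the Glis3 zf5 allele, in which a deletion in exon 4, reaching into the introns on both sides, removes the DNA-binding capacity of GLIS3, a zinc finger transcription factor. The allele acts in every cell of the animal and not in germ cells alone. Ribosomal RNA was removed, no step selected poly-A tails and strand was not kept, so the values cover spliced and unspliced RNA of all cell types of the testis together.

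Nodal is a secreted ligand of the TGF-beta superfamily. It binds a type I receptor (ACVR1B or ACVR1C) and a type II receptor (ACVR2A or ACVR2B) with the help of the co-receptor TDGF1, also called CRIPTO, and the receptors phosphorylate SMAD2 and SMAD3, which enter the nucleus with SMAD4 and act with partners such as FOXH1. Nodal, Lefty1 and Lefty2 are themselves targets of the pathway, and the LEFTY proteins block the ligand and its co-receptor, so the pathway carries both positive and negative feedback. In the fetal testis Nodal signalling is known from germ cells, where it is active for a short time after sex determination and is linked with the expression of pluripotency genes.

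Expression was given as FPKM, in which the fragments of a gene are divided by its transcript length and scaled between libraries. The number of fragments behind each value is unknown, and the steps between the lowest values put the depth of the other libraries at 0.776 to 0.930 of that of WT replicate 1. Glis3 itself was at 7.63, 6.89 and 2.91 FPKM in the WT libraries and at 3.86, 3.26, 2.90 and 2.66 FPKM in the Mutant libraries. The library labelled WT replicate 3 thus lay among the Mutant libraries for the disrupted gene, although reads from the exons that the allele keeps also enter this value, and results are given with and without that library. Of all genes, 13988 averaged 0.5 FPKM or more and were tested, and limma on log2(FPKM + 0.5) called 1 gene at an adjusted p under 0.05, and 720 genes without the library labelled WT replicate 3. Defining markers of the testis were present. The summed FPKM of 8 Sertoli cell genes was 373 to 579 in WT and 495 to 627 in Mutant libraries. That of 6 fetal Leydig cell genes was 1654 to 2724 in WT and 2578 to 3155 in Mutant libraries. All 6 Leydig cell genes had a positive fitted difference, and 5 had an unadjusted p under 0.05, beside 17.0% of all genes. At an adjusted p under 0.05 limma called 0 of the 6. Without the library labelled WT replicate 3 it called 1 of them, Nr5a1, higher in Mutant, beside 5.15% of all genes. The adjusted p of Nr5a1 was then 0.0363, and those of Insl3, Star, Cyp11a1, Hsd3b1 and Cyp17a1 were 0.0504 to 0.350 (limma). The summed FPKM of 14 germ cell genes was 909 to 1835 in WT and 738 to 849 in Mutant libraries, with none of the 14 at 0 in any library. All 14 had a negative fitted difference, and 10 of them had an unadjusted p under 0.05, beside 17.0% of all genes. At an adjusted p under 0.05 limma called 0 of the 14, and 9 of the 14, all lower in Mutant, without the library labelled WT replicate 3, where 5.15% of all genes were called. The 5 macrophage genes summed to 24.5 to 30.9 FPKM in WT and 31.1 to 42.9 FPKM in Mutant libraries, and the 4 endothelial genes to 54.5 to 64.1 and 55.5 to 60.3 FPKM. The 5 mesonephric and ovarian genes summed to 12.3 to 15.2 FPKM in WT and 13.4 to 16.1 FPKM in Mutant libraries, with Pax2 and Foxl2 at or near 0, Pax8 at 0.559 to 1.01 FPKM, Wnt4 at means of 6.09 and 7.06 FPKM and Emx2 at means of 7.22 and 6.55 FPKM. In whole testes, fewer cells of a type and less RNA per cell cannot be told apart.

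None of the 9 genes passed the test between genotypes. Of the 9, 8 passed the filter on low values, and limma called 0 of these 8 (2-sided, Benjamini-Hochberg adjusted over all genes tested), beside 0.00715% of all genes tested. At an unadjusted p under 0.05 the count was also 0 of 8, beside 17.0% of all genes. Without the library labelled WT replicate 3 it was again 0 of 8, beside the 5.15% of all genes called then. WT and Mutant libraries overlapped for every one of the 9 genes, beside 7.59% of all genes with every Mutant library below every WT library and 7.31% with every Mutant library above. Of the 8 fitted differences, 4 were positive and 4 negative.

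The 9 genes covered a wide range of levels. On the FPKM scale, which is per length, Lefty2 had the highest group means, and it averaged 28.2 ± 9.51 (SD, n = 3) in WT and 28.2 ± 6.71 (SD, n = 4) in Mutant libraries, while Lefty1 averaged 26.7 ± 16.5 and 15.2 ± 2.56. Smad2, at means of 18.2 in WT and 18.0 in Mutant libraries, was below Lefty1 in WT and above it in Mutant libraries, and the ranges of Smad2 and Lefty1 overlapped in both groups. Acvr1b and Smad3 had means between 12.6 and 13.7, and Acvr1b and Smad3 were not separated by their spread in either group, nor was Lefty1 from either of them in Mutant libraries. Nodal, Tdgf1 and Acvr2b lay between 3.10 and 6.49 on average. In WT libraries the range of Tdgf1 contained that of Acvr2b, whereas in Mutant libraries every Tdgf1 value was above every Acvr2b value. Acvr1c was lowest, at 0.399 ± 0.0607 in WT and 0.431 ± 0.0490 in Mutant libraries.

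**Figure D1:**
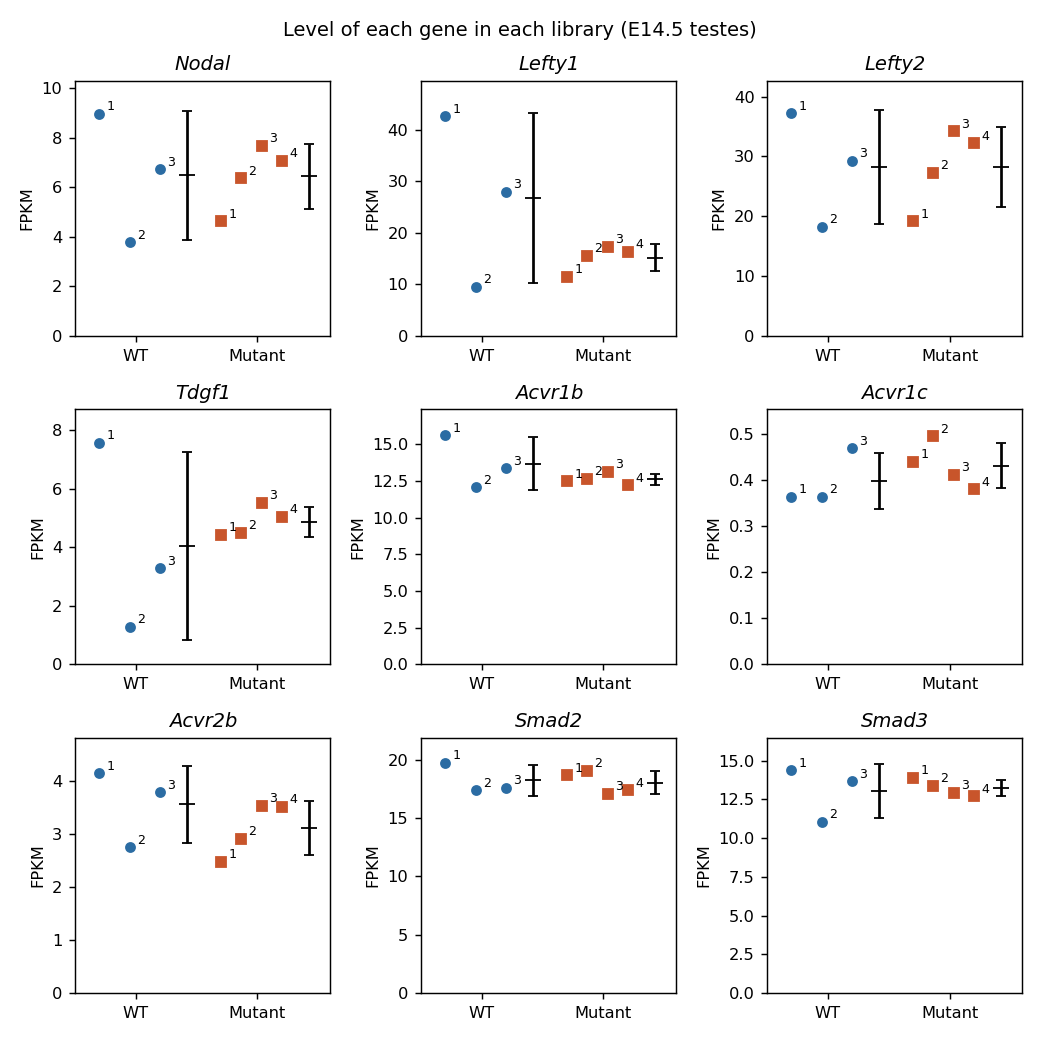
FPKM of each of the 9 genes (vertical axes from 0) in the 3 WT libraries (circles) and 4 Mutant libraries (squares), numbered by replicate; the black bars give mean ± SD. WT and Mutant libraries overlap in every panel, and for Nodal, Lefty1, Lefty2 and Tdgf1 WT replicate 1 is highest and WT replicate 2 lowest, so the Mutant libraries lie between them.

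The ligand gene Nodal (chr10:61417972-61425337, plus strand, mm10) was at 8.96, 3.78 and 6.73 FPKM in WT replicates 1 to 3 and at 4.63, 6.37, 7.67 and 7.08 FPKM in Mutant replicates 1 to 4. All 4 Mutant values lay inside the WT range, and both the highest and the lowest testes were WT, 2.37 times apart. The fitted difference was 0.04 ± 0.26 (SE) on the log2(FPKM + 0.5) scale, with a 95% interval of -0.56 to 0.64 and an adjusted p of 0.950 (limma). Without the library labelled WT replicate 3 it was 0.10 ± 0.31 (adjusted p = 0.881), and it turned to -0.28 without WT replicate 2. The interval thus leaves room for a change of 0.5 on the log2 scale in either direction.

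Promoter sequences from RefSeq (GRCm38.p6) were matched for 6 of the 9 genes, and those of Nodal and Tdgf1, the ligand and its co-receptor, are shown because both genes varied widely between the WT testes. The sequences were searched on both strands for AATNCACA (bound by FOXH1), CAGAC (a motif that contains the SMAD-binding core) and TGGGGGGT (a GLIS-type motif), which occur in 3.60%, 49.6% and 1.53% of 32851 promoters of this length. The sequence of Nodal, at chr10:61417722-61418021 on the plus strand, held none of these letters in the window searched. That of Tdgf1, at chr9:110946109-110946408 on the minus strand, held 1 CAGAC at base 138, shown in capitals.
Nodal: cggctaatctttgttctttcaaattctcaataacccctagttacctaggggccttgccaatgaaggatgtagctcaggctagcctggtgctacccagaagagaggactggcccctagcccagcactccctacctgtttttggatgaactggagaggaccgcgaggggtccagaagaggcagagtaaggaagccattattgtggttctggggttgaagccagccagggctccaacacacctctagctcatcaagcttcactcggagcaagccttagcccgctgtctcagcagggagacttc
Tdgf1: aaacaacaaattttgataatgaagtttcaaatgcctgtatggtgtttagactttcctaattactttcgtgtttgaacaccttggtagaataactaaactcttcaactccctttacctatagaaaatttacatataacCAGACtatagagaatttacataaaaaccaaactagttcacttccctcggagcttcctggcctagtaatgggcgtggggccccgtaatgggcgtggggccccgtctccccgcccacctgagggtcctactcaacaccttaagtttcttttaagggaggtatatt

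The inhibitor gene Lefty2 (chr1:180893119-180899102, plus strand) was at 37.2, 18.2 and 29.3 FPKM in WT libraries and at 19.1, 27.2, 34.2 and 32.2 FPKM in Mutant libraries. Its Mutant values again lay inside the WT range. The fitted difference was 0.02 ± 0.26 (95% interval -0.57 to 0.61, limma adjusted p = 0.974), and 0.08 ± 0.31 without the library labelled WT replicate 3 (adjusted p = 0.912), and it turned to -0.26 without WT replicate 2.

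Lefty1 (chr1:180935039-180938401, plus strand), its neighbour on chromosome 1, was at 42.6, 9.59 and 28.0 FPKM in WT libraries and at 11.5, 15.5, 17.3 and 16.4 FPKM in Mutant libraries. WT replicate 1 and the library labelled WT replicate 3 stood above all Mutant testes and WT replicate 2 below them, so the WT testes differed 4.44-fold among themselves and the Mutant testes 1.51-fold. Its fitted difference was -0.58 ± 0.42, with a 95% interval of -1.54 to 0.38 and an adjusted p of 0.513 (limma), and -0.43 ± 0.49 without the library labelled WT replicate 3 (adjusted p = 0.656). It was -1.18 without WT replicate 2 (adjusted p = 0.102) and -0.13 without WT replicate 1 (limma). The LEFTY genes are close paralogs: of the 1707 windows of 50 bases in Lefty1 transcripts, 306 (17.9%) also occur in Lefty2, which has 2560 windows. Reads from these stretches could be split between both genes by the counting, and the division of FPKM between Lefty1 and Lefty2 is uncertain to that degree.

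Ratios between genes of the same library depend little on library scaling, and 9 such log2 ratios were compared by exact permutation (2-sided, with 35 ways to divide 7 libraries into 3 and 4 and hence a smallest possible p of 0.0286). The ratio of Lefty2 to Nodal was nearly the same in all testes: on the log2(FPKM + 0.5) scale it was 1.99, 2.13 and 2.04 in WT libraries and 1.94, 2.01, 2.09 and 2.11 in Mutant libraries. It averaged 2.06 ± 0.0692 (SD, n = 3) in WT and 2.04 ± 0.0770 (SD, n = 4) in Mutant libraries, a difference of -0.02 (exact permutation p = 0.743). Lefty2 thus kept to Nodal across testes in which Nodal itself ranged over 2.37-fold of both groups.

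The ratio of Lefty1 to Nodal behaved differently. It was 2.19, 1.24 and 1.98 in WT libraries and 1.23, 1.22, 1.13 and 1.16 in Mutant libraries, a difference of -0.62 between group means. Every Mutant library was below every WT library, but WT replicate 2 exceeded the highest Mutant library by 0.01 only. The exact permutation p was 0.0286, the smallest this design allows, and 0.129 after Benjamini-Hochberg adjustment over the 9 ratios. Without the library labelled WT replicate 3 the difference was -0.53 (exact permutation p = 0.0667, then the smallest possible), and with a pseudocount of 1 the groups overlapped (p = 0.0857). It was -0.90 without WT replicate 2 and -0.43 without WT replicate 1. The ratio of Lefty2 to Lefty1 was -0.19, 0.89 and 0.06 in WT libraries and 0.71, 0.79, 0.96 and 0.95 in Mutant libraries (difference 0.60, exact permutation p = 0.0857, adjusted 0.206).

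**Figure D2:**
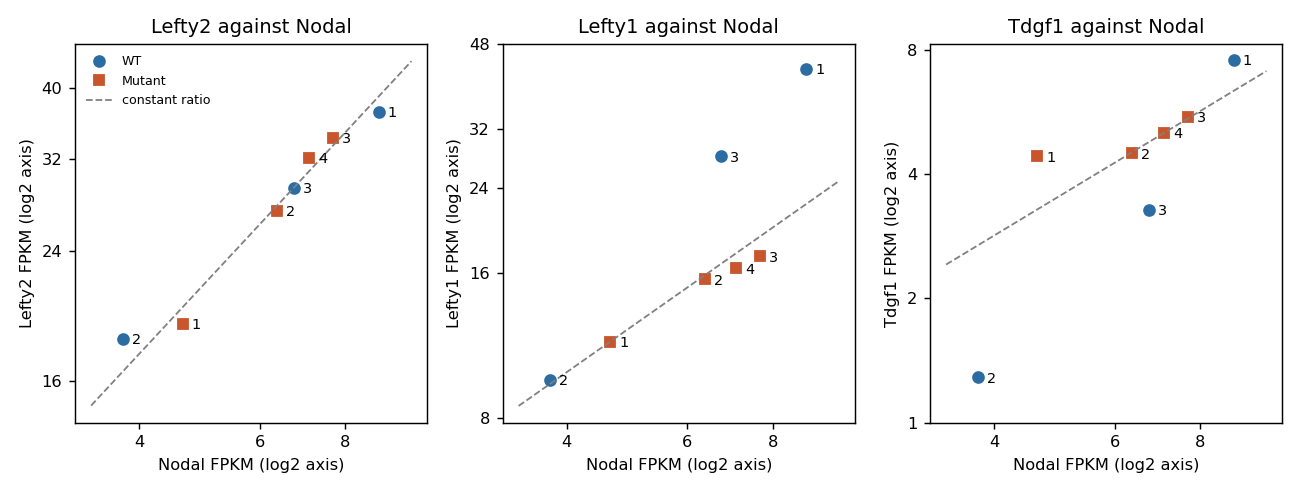
FPKM of Lefty2, Lefty1 and Tdgf1 against FPKM of Nodal in each library, on log2 axes; circles are WT and squares Mutant libraries, numbered by replicate, and the dashed line marks the median ratio of the 7 libraries. All 7 libraries lie close to the line for Lefty2, WT replicates 1 and 3 lie above it for Lefty1, and WT replicate 2 lies far below it for Tdgf1.

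**Figure D3:**
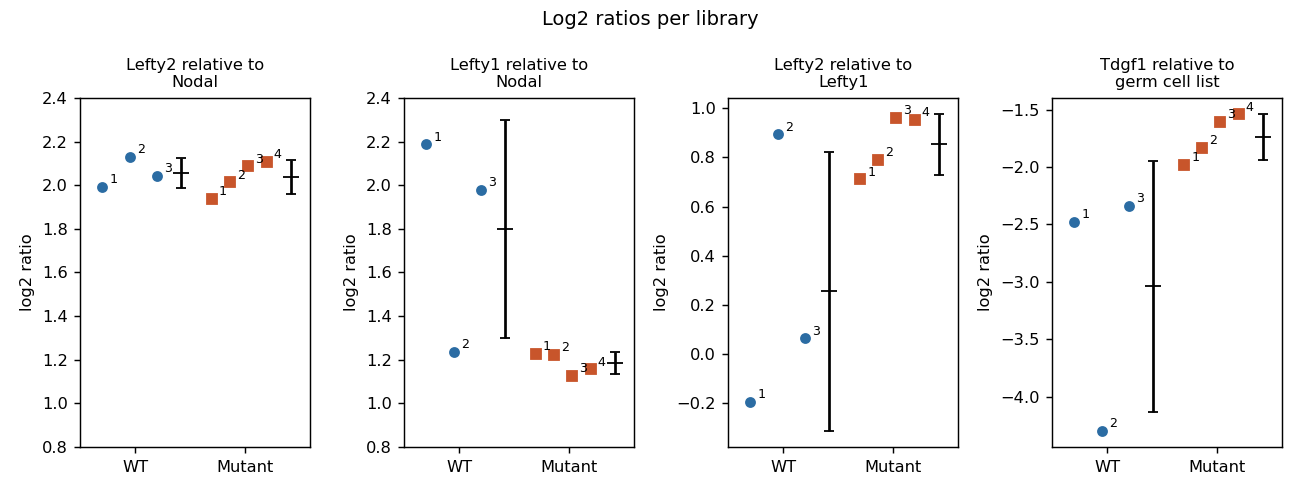
Log2 ratios per library, as differences of log2(FPKM + 0.5), for WT (circles) and Mutant (squares), with mean ± SD as black bars; the last panel is relative to the mean of 14 germ cell genes. Lefty2 relative to Nodal stays between 1.94 and 2.13 in both groups, and Lefty1 relative to Nodal is 1.13 to 1.23 in Mutant libraries and 1.24 to 2.19 in WT libraries.

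The co-receptor gene Tdgf1 (chr9:110939608-110946158, minus strand) was the most variable of the 9 genes between WT testes. It was at 7.57, 1.29 and 3.28 FPKM in WT libraries, a range of 5.87-fold, and at 4.41, 4.49, 5.51 and 5.03 FPKM in Mutant libraries, a range of 1.25-fold. Its fitted difference was 0.49 ± 0.41 (95% interval -0.45 to 1.44, limma adjusted p = 0.572) and 0.49 ± 0.49 without the library labelled WT replicate 3 (adjusted p = 0.604). This difference rested on WT replicate 2, without which it was -0.05, and it was 1.04 without WT replicate 1. Of the transcript windows of Tdgf1, 8.86% also occur in the pseudogene Tdgf1-ps1. The ratio of Nodal to Tdgf1 was 0.23, 1.26 and 0.93 in WT libraries and 0.06, 0.46, 0.44 and 0.45 in Mutant libraries (difference -0.45, exact permutation p = 0.200).

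The second deposited table, counts of uniquely mapped reads on repeat elements, gave a further reading of some of these genes, because the libraries hold unspliced RNA and several genes carry repeats in introns or exons. Inside Tdgf1, 11 repeat loci held 234, 32 and 104 reads in WT libraries and 131, 107, 156 and 144 reads in Mutant libraries, which is 50.1, 8.31 and 24.2 against 34.9, 31.0, 41.8 and 36.3 CPM (counts scaled to the reads on all repeat loci of the library). The order of the WT libraries was that of the FPKM values, with WT replicate 2 lowest of all 7 libraries. Nearly all reads came from 3 short elements in exons near the 3′ end of the gene, a B1F1 and a pair of PB1D9 elements. Reads in exons can also enter the FPKM of the same library, so the shared order is not a separate measurement of Tdgf1. By the quasi-likelihood test of edgeR on all 12253 gene sums with a mean of at least 10 reads, the difference was 0.42 on the log2 scale (adjusted p = 0.663), and without the library labelled WT replicate 3 it was 0.34 (adjusted p = 0.761). Nodal held 10 intronic loci with 1 to 14 reads per library, Lefty2 7 loci with 0 to 2 reads, and Lefty1 none, too few to test.

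The type I receptor gene Acvr1b, also known as ALK4 (chr15:101174125-101212601, plus strand), was at 15.6, 12.1 and 13.4 FPKM in WT libraries and at 12.5, 12.6, 13.1 and 12.2 FPKM in Mutant libraries. The groups overlapped, and the fitted difference of -0.10 ± 0.09 had an interval of -0.31 to 0.10 (limma adjusted p = 0.580). Repeat reads inside Acvr1b, all 49 loci of which are intronic, gave 30.4, 27.0 and 30.4 CPM in WT libraries and 20.3, 19.98, 25.7 and 24.2 CPM in Mutant libraries. Every Mutant library was here below every WT library, as for 5.81% of all gene sums tested. The difference was -0.34 on the log2 scale with an unadjusted p of 0.0357, beside 12.6% of gene sums at an unadjusted p under 0.05, and an adjusted p of 0.365 (edgeR). Without the library labelled WT replicate 3 it was -0.30 (adjusted p = 0.457).

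Over the 6 genes with enough repeat reads, edgeR called 0 at an adjusted p under 0.05, beside 0.00816% of all gene sums, and Acvr1b was the 1 gene at an unadjusted p under 0.05. DESeq2 also called 0 of them. Acvr1c, Acvr2b, Smad2 and Smad3 had overlapping groups in repeat reads.

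**Figure D4:**
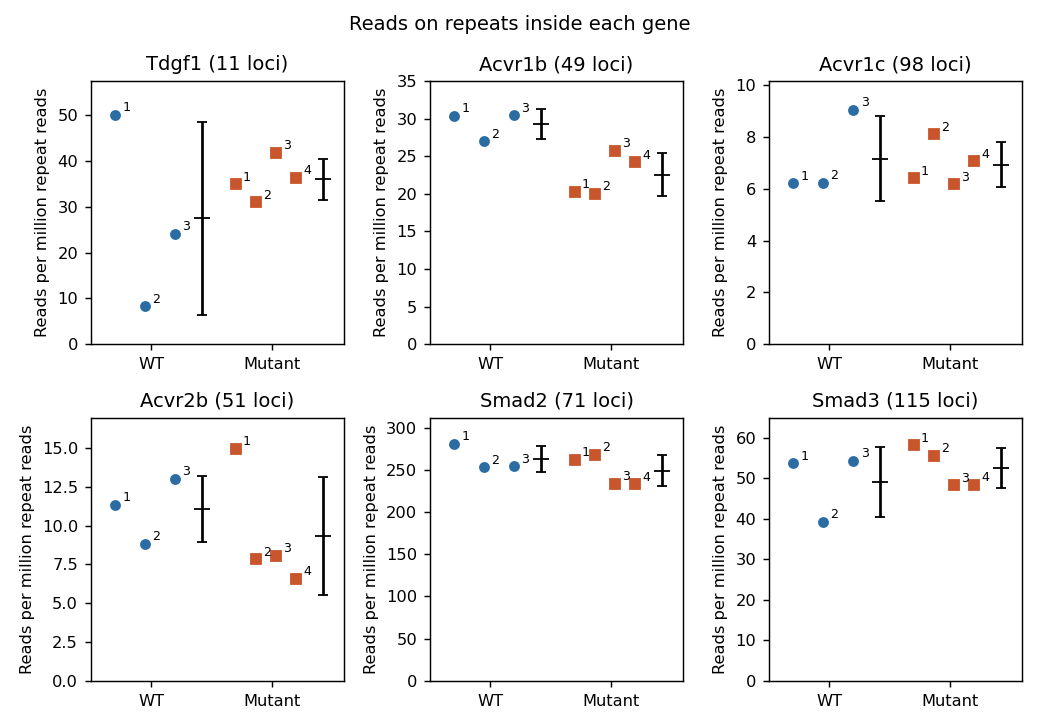
CPM of reads on repeat loci inside each of 6 genes (vertical axes from 0), for WT (circles) and Mutant (squares) libraries, numbered by replicate, with mean ± SD as black bars. Tdgf1, with nearly all its reads in exons, is lowest in WT replicate 2 and highest in WT replicate 1, as in FPKM. Acvr1b is the one gene of the 6 in which the groups do not overlap.

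The other type I receptor gene, Acvr1c or ALK7 (chr2:58267453-58357758, minus strand), was at 0.363, 0.364 and 0.469 FPKM in WT libraries and at 0.439, 0.495, 0.411 and 0.380 FPKM in Mutant libraries, below the filter. An exact permutation test gave p = 0.457. On the same per-length scale, Acvr1b was the higher of the type I receptor genes in every library of both groups.

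The type II receptor gene Acvr2b (chr9:119402501-119433506, plus strand) was at 4.13, 2.74 and 3.78 FPKM in WT libraries and at 2.47, 2.90, 3.52 and 3.50 FPKM in Mutant libraries. Its fitted difference was -0.17 ± 0.16 (95% interval -0.53 to 0.20, limma adjusted p = 0.624). Acvr2a, which encodes the other type II receptor, was higher than Acvr2b in every library, at 9.36 to 10.1 FPKM in WT and 9.65 to 10.4 FPKM in Mutant libraries, with a fitted difference of 0.04 ± 0.07 (adjusted p = 0.775).

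Of the receptor-activated effectors, Smad2 had the narrowest log2 range of the 8 tested genes over the 7 libraries. Smad2, on chromosome 18, was at 19.8, 17.4 and 17.6 FPKM in WT libraries and at 18.7, 19.0, 17.1 and 17.4 FPKM in Mutant libraries. Its fitted difference was -0.01 ± 0.07, with a 95% interval of -0.18 to 0.15 (limma adjusted p = 0.938). Smad3 (chr9:63646767-63757994, minus strand) was at 14.4, 11.1 and 13.7 FPKM in WT libraries and at 13.9, 13.4, 12.9 and 12.7 FPKM in Mutant libraries, with a difference of 0.03 ± 0.09 and an interval of -0.19 to 0.24 (adjusted p = 0.911). For these genes the intervals were narrow, at most 0.24 on the log2 scale from no change. The ratio of Smad3 to Smad2 was -0.63 to -0.35 in WT and -0.50 to -0.39 in Mutant libraries (exact permutation p = 0.686). Without the library labelled WT replicate 3 the fitted differences were -0.12 for Acvr1b, -0.12 for Acvr2b, -0.04 for Smad2 and 0.06 for Smad3 (limma adjusted p between 0.559 and 0.824). These are transcript levels, and phosphorylation of the SMAD proteins was not measured.

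**Figure D5:**
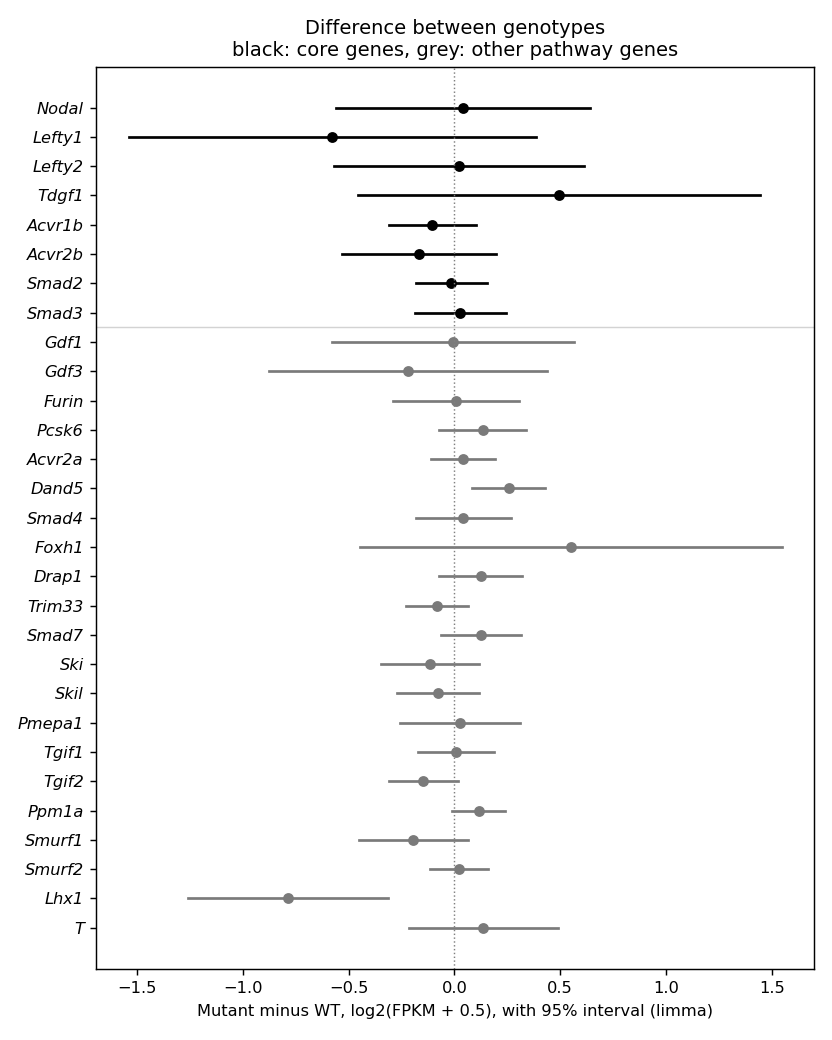
Fitted differences (Mutant minus WT) in log2(FPKM + 0.5) with 95% intervals from limma, for the 8 tested genes of the set (black) and 21 other tested genes of the pathway (grey). All 8 black intervals include 0, with the widest for Lefty1 and Tdgf1 and the narrowest for Smad2, and the grey intervals of Dand5 and Lhx1 exclude 0.

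The spread between testes was widest for the co-receptor, inhibitor and ligand genes, and for these the WT group alone spanned it. Over all tested genes, the median range of log2(FPKM + 0.5) over the 7 libraries was 0.42. It was 2.17 for Tdgf1, 2.09 for Lefty1, 1.14 for Nodal and 1.01 for Lefty2, which is between the 91.7th and 98.5th percentile of all tested genes, without matching for level. For Acvr1b, Smad3 and Smad2 it was 0.36, 0.36 and 0.20. WT replicate 1 was the highest of the 7 libraries for 8 of the 8 tested genes, as it was for 28.8% of all genes, and WT replicate 2 the lowest for 6 of 8, as it was for 23.3% of all genes. After centring each library on its median, an alternative added after seeing the data, the counts were 7 of 8 in each case, beside 21.6% and 22.1% of all genes. These genes share their libraries, and no test was made of the counts.

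Genes with the most similar course over the 7 libraries were ranked by the root mean square distance between profiles of log2(FPKM + 0.5), each centred on its mean. Of 13987 other genes, Lefty2 was the nearest to Nodal, at a distance of 0.063, and Nodal the nearest to Lefty2. The next genes were Siglecf and Man2c1os for Nodal, at 0.133 and 0.139, and Gm8615 and Man2c1os for Lefty2, at 0.137 and 0.144. Lefty2 remained the nearest gene to Nodal whichever library was left out, an alternative added after seeing the data, and Nodal ranked first for Lefty2 except without Mutant replicate 1, where it ranked second by this measure. This is a description over 7 libraries of 1 tissue.

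Foxh1, the DNA-binding partner of SMAD2 and SMAD3, ranked second in likeness to Tdgf1, at a distance of 0.262. In likeness to Nodal, Lefty2 and Lefty1, Foxh1 ranked 9781, 11615 and 1819. It was at 4.75, 0.776 and 3.97 FPKM in WT libraries and at 3.71, 3.26, 5.09 and 4.31 FPKM in Mutant libraries. Like Tdgf1 it was lowest in WT replicate 2, and this likeness rested on that library: without it, Foxh1 ranked 1184. Cntfr came next after Foxh1, at 0.317. The genes nearest to Lefty1 were D7Ertd143e, Ap3b2 and Dusp4, at distances of 0.267 to 0.284. Nodal ranked 32 in likeness to Lefty1, and Lefty1 ranked 8607 in likeness to Nodal.

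Of 28 other genes of the pathway, 22 passed the filter and limma called 0 of them at an adjusted p under 0.05. At an unadjusted p under 0.05 there were 2 of 22, beside 17.0% of all genes. The median fitted difference of the 22 was 0.02, beside 0.01 over all tested genes. The groups did not overlap for 2 of the 22 with Mutant lower and 2 with Mutant higher, beside 7.59% and 7.31% of all genes. Of the alternative ligands, Gdf3 was at 1.58 to 4.44 FPKM in WT and 1.53 to 2.74 FPKM in Mutant libraries, and Gdf1 was under 1 FPKM in all. The convertase genes Furin and Pcsk6, which process the precursor of Nodal, had overlapping groups. Cfc1, the other co-receptor of the CRIPTO family, was at most 0.0517 FPKM.

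Among the antagonists, Dand5 (also known as Cerl2) was at 5.41, 5.67 and 6.01 FPKM in WT libraries and at 6.51, 7.11, 6.79 and 7.19 FPKM in Mutant libraries. Every Mutant testis was above every WT testis, with a fitted difference of 0.26 ± 0.08, an unadjusted p of 0.0091 and an adjusted p of 0.190 (limma), or 0.29 and 0.0923 without the library labelled WT replicate 3. Cer1 was at most 0.281 FPKM. The common effector Smad4 was at 43.2 to 51.2 FPKM in WT and 43.7 to 54.8 FPKM in Mutant libraries, and the partners Foxh1, Drap1 and Trim33 had overlapping groups, as had 7 of the 9 feedback and brake genes. The exceptions were Tgif2 and Ppm1a. Tgif2, a corepressor of SMAD2, was at 25.6 to 29.8 FPKM in WT and 23.1 to 25.2 FPKM in Mutant libraries (adjusted p = 0.341, limma). Ppm1a, a phosphatase of SMAD2 and SMAD3, was at 68.1 to 72.0 FPKM in WT and 74.5 to 79.6 FPKM in Mutant libraries (adjusted p = 0.331, limma). Of all genes, 7.59% had every Mutant library below every WT library and 7.31% had every Mutant library above.

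Of 7 targets known from the early embryo, 3 were tested. Lhx1, a LIM homeobox gene, was at 2.41, 1.23 and 1.24 FPKM in WT libraries and at 0.524, 0.892, 0.722 and 0.673 FPKM in Mutant libraries. All Mutant testes were below all WT testes, with a fitted difference of -0.79 ± 0.21, an unadjusted p of 0.0047 and an adjusted p of 0.178 (limma), or -0.91 and 0.0630 without the library labelled WT replicate 3. The tested target T had overlapping groups, at 0.473 to 0.828 FPKM in WT and 0.577 to 0.878 FPKM in Mutant libraries. Its fitted difference was in the other direction, at 0.14 (limma adjusted p = 0.682), or 0.25 without the library labelled WT replicate 3 (adjusted p = 0.386). Eomes, Mixl1, Gsc and Fgf8 were below the filter.

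Of 6 germ cell genes linked with the pathway, 5 had a negative and 1 a positive fitted difference. At an adjusted p under 0.05 limma called 0 of the 6, and 3 had an unadjusted p under 0.05, beside 17.0% of all genes. Without the library labelled WT replicate 3 limma called 1 of the 6, beside 5.15% of all genes. This was Pou5f1 (-1.16, adjusted p = 0.0212), which is also one of the 14 germ cell genes. Nanog, a pluripotency gene, was at 10.3, 3.71 and 5.45 FPKM in WT libraries and at 3.94, 4.68, 6.67 and 5.37 FPKM in Mutant libraries, with WT replicate 1 highest and WT replicate 2 lowest as for Nodal. Sox2 was at 15.5, 6.43 and 5.11 FPKM in WT libraries and at 3.83, 4.44, 4.58 and 4.23 FPKM in Mutant libraries, all of them lower (difference -0.84, limma adjusted p = 0.237). Stra8, a gene induced by retinoic acid at meiotic entry, was at 1.08, 0.601 and 0.0911 FPKM in WT libraries and at 2.06, 1.96, 1.40 and 1.98 FPKM in Mutant libraries, all of them higher (difference 1.21, adjusted p = 0.170). Without the library labelled WT replicate 3 the adjusted p was 0.0618 for Sox2 and 0.0521 for Stra8 (limma).

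Nanos2 and Dnmt3l, genes of male germ cell differentiation, ran differently from Nodal in the WT testes. Nanos2 was at 16.2, 20.1 and 1.06 FPKM in WT libraries and at 9.63, 4.27, 2.02 and 1.81 FPKM in Mutant libraries. Dnmt3l was at 0.883, 7.35 and 0.0754 FPKM in WT libraries and at 1.95, 0.424, 0.0813 and 0.0826 FPKM in Mutant libraries. Both were highest in WT replicate 2, the library in which Nodal, Lefty1, Lefty2, Tdgf1 and Foxh1 were lowest. WT replicate 2 was the highest library for 12.5% of all genes. Among the germ cell genes used as reference below, it was highest for Dnd1, Sycp3, Taf7l and Stk31, and WT replicate 1 was highest for the others. Nanos2 and Dnmt3l were both lowest in the library labelled WT replicate 3, although Dnmt3l was near 0 there and in Mutant replicates 3 and 4 alike. Their fitted differences were -0.99 and -0.98 (limma adjusted p = 0.598 and 0.583). Without the library labelled WT replicate 3 they were -2.18 and -1.82 (adjusted p = 0.0633 and 0.209). The samples' labels give 1 age for all embryos.

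Relative to the germ cell genes, the group means of Nodal, Lefty1, Lefty2 and Tdgf1 were higher in Mutant testes. Without this reference their fitted differences were 0.04, -0.58, 0.02 and 0.49 (limma). All 14 germ cell genes had a negative fitted difference, so the ratios of Nodal and Lefty2 differed mostly through the germ cell genes. In the ratio to the germ cell genes, the difference of Lefty1 turned to -0.46 without WT replicate 2. No difference passed the threshold after adjustment over the 9 ratios, which this design does not allow for a few separated ratios alone. The mean log2(FPKM + 0.5) of the 14 germ cell genes was 4.96 in WT and 4.16 in Mutant libraries. By library it was 5.49, 5.14 and 4.26 in WT and 4.28, 4.15, 4.19 and 4.01 in Mutant. The library labelled WT replicate 3 thus lay among the Mutant libraries for this mean. Tdgf1 minus this mean was -2.48, -4.30 and -2.34 in WT libraries and -1.98, -1.83, -1.60 and -1.54 in Mutant libraries, a difference of 1.30, with every Mutant library above every WT library. The exact permutation p was 0.0286, the smallest possible, and 0.129 adjusted over the 9 ratios, and without the library labelled WT replicate 3 the difference was 1.65 (exact permutation p = 0.0667, then the smallest possible). Without WT replicate 2 it was 0.67, and those of Nodal and Lefty2 were 0.44 and 0.46. The median of the germ cell genes in place of their mean gave 1.49 (exact permutation p = 0.0571). For Nodal and Lefty2 the differences were 0.85 and 0.83 (both exact permutation p = 0.114, adjusted 0.206), and for Lefty1 0.23 (p = 0.771). Without the library labelled WT replicate 3 they were 1.26 for Nodal and 1.23 for Lefty2 (both exact permutation p = 0.0667), and 0.73 for Lefty1 (p = 0.2). The part of germ cell number or stage in these ratios was not tested.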

How the data were processed

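RNA-Seq of 7 pairs of E14.5 testes was used (3 WT, 4 Mutant), grouped by the sample labels. The authors aligned reads to mm10 with TopHat 2.0.12, allowing reads with several hits, and made the deposited FPKM values per RefSeq gene with Cuffnorm. The authors made the deposited counts of uniquely mapped reads per RepeatMasker element with HTSeq-count, not normalized.

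FPKM was tested with limma 3.58.1 (trend, 2-sided) in R 4.3.3 on log2(FPKM + 0.5) for genes averaging 0.5 FPKM or more, and p-values were adjusted over all tested genes by the Benjamini-Hochberg method (threshold 0.05). This scale understates changes of low genes. Repeat counts were summed over loci wholly inside 1 gene and tested with edgeR 4.0.16 (quasi-likelihood, TMM), for sums with a mean of at least 10 reads. Ratios were compared with exact permutation tests in Python 3.11.15. Repeat reads numbered 3454317 to 4670830 per library, and the precision of FPKM from counting is unknown. Shared windows were counted in GENCODE M21 transcripts. Both tests were run on simulated data with independent noise and added changes. That setting holds no library that deviates as a whole, so it does not bear on the dependence on single libraries. DESeq2 1.42.0, other pseudocounts, filters and scalings, a replicate block and leaving out each library were alternatives.

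The genes and lists were chosen with earlier results of these data known. Named were the 9 genes, Glis3, other pathway genes whose groups did not overlap or whose role needed a value, 6 germ cell genes linked with the pathway, and the 3 genes nearest in profile to Nodal, Lefty1, Lefty2 and Tdgf1, apart from 1 gene that is not reported here. Cuffdiff, which needs aligned reads, and protein sequences were not used here.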

Additional observations from a re-analysis of the deposited data

Results flagged for a closer look

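The ratio of Nodal to Tdgf1 in Mutant replicate 1 stood apart from the other Mutant libraries. On the log2(FPKM + 0.5) scale it was 0.06 in that library and 0.46, 0.44 and 0.45 in the others, and its gap to the nearest of them was 0.960 of the range of the group. In that library Nodal was the lowest of the 4 Mutant values, at 4.63 FPKM, while Tdgf1, at 4.41 FPKM, was close to Mutant replicate 2, at 4.49 FPKM. Of 24 groups of 4 Mutant values examined in this way, 1 passed the critical value, and chance gives about 1 in 20.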

How the results depend on the processing

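No alternative run brought any of the 9 genes past the threshold, in FPKM or in repeat reads, or any other pathway gene in FPKM. Over all genes limma called 4 without a filter, 3 after quantile normalization, 0 with the replicate block and 1 to 720 without 1 library, the most without the library labelled WT replicate 3. For repeat reads DESeq2 called 56, no filter 48, the replicate block 0, and leaving out 1 library 0 to 138. The labels do not say whether replicate numbers pair the samples. Same-numbered WT and Mutant libraries deviated with correlations of 0.198, -0.177 and 0.229, and the other pairs of WT and Mutant libraries with -0.303 to 0.172. With the replicate block the differences of Nodal, Lefty2 and Smad2 were -0.0084, -0.0513 and 0.0025, and quantile normalization gave 0.0021 for Smad2. Without 1 library the difference of Nodal ran from -0.28 to 0.30, of Lefty1 from -1.18 to -0.13, of Lefty2 from -0.26 to 0.25, of Tdgf1 from -0.0481 to 1.04, of Smad2 from -0.0466 to 0.0424, of Smad3 from -0.0826 to 0.0990 and, in repeat reads, of Acvr1c from -0.16 to 0.20. Nodal, Lefty2, Tdgf1 and Smad3 turned negative without WT replicate 2, and Nodal and Lefty2 also without Mutant replicate 3 or 4. The ratio of Lefty1 to Nodal differed by -0.60 with a pseudocount of 1 (exact permutation p = 0.0857) and by -0.90 to -0.43 without 1 library. That of Lefty2 to Nodal ran from -0.0502 to 0.0182, of Smad3 to Smad2 from -0.036 to 0.10, and of Lefty1 to the germ cell genes from -0.46 to 0.73. That of Tdgf1 to the germ cell genes was 1.49 with their median (exact permutation p = 0.0571) and 0.67 to 1.65 without 1 library, where the smallest p the design allows is 0.0667 without a WT and 0.1 without a Mutant library. The cause of these shifts was not tested. Depth limits Acvr1c and the repeat reads in Nodal and Lefty2, which are too few to compare.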
